A study of Mus musculus with 10 samples.

Results

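The regions described here are 9817 stretches of accessible chromatin in mouse T helper 17 (Th17) cells. They lay outside every protein-coding gene body, more than 1 kb and at most 50 kb from the nearest one. They were taken from the authors' deposited table of 39657 sites by position alone, so they made up 24.8% of it, and no measured value was used to choose them. Distances were taken to the GRCm38.p6 RefSeq gene models, in which protein-coding genes set the nearest gene and long non-coding RNAs (lncRNAs) were annotated separately. Of the 9817 sites 1949 lay in the body of a lncRNA gene. The other sites were 16800 in gene bodies, 9825 at gene ends (within 1 kb) and 3207 farther than 50 kb from a gene.

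Accessibility was measured by ATAC-seq, in which a transposase inserts sequencing adapters where DNA is not wrapped up by nucleosomes. Naive CD4+ T cells were isolated from mouse spleen and lymph nodes and cultured for 3 days with plate-bound anti-CD3, anti-CD28, IL-6, TGFβ and anti-IFNγ, which are Th17-inducing conditions. The 10 libraries formed 4 groups, numbered below as in the columns of the table. The numbers of WT untreated 4 and KO acetate 3 stand in no sample title of their groups. Those columns were placed by the genotype and treatment in their names. KO acetate (n = 2) and KO untreated (n = 3) came from PDHfl/fl CD4 Cre+ mice, labelled pyruvate dehydrogenase (PDH) knockout. WT acetate (n = 2) and WT untreated (n = 3) came from PDHfl/fl mice, which carry the same floxed allele without Cre and are labelled wild type. Acetate-treated cells were differentiated in 10 mM sodium acetate. The labels do not give the PDH subunit whose gene was floxed, the animals behind each library or their age. The p-values therefore rest on the spread between these libraries, which may be technical. For single sites that spread was drawn in part from other sites of similar signal. CD4-Cre is driven by regulatory sequence of Cd4 and acts from thymic development onwards, before the cells were put into culture. No intergenic site was nearest to Pdha1, the gene of the E1 alpha subunit, so these sites do not check the deletion.

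Open chromatin between genes often holds enhancers and other elements bound by transcription factors, and in T helper cells many such elements lie far from the cytokine and receptor genes they serve. In mitochondria pyruvate dehydrogenase makes acetyl-CoA from pyruvate, which enters the TCA cycle as citrate. Citrate exported from mitochondria is split by ATP citrate lyase into cytosolic acetyl-CoA, which histone acetyltransferases use, and acetate can be turned into acetyl-CoA by acetyl-CoA synthetases without that route. The comparisons here therefore ask how distal accessibility differed between cells labelled PDH knockout and wild type, and how it differed when acetate was supplied. A site is named by its nearest protein-coding gene only to place it, and which gene an element serves was not measured.

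Among the intergenic sites 217 overlapped the start window of an annotated lncRNA (250 bases before to 50 after the start), 218 lncRNA genes in all. The sequences of 4 of these windows are shown because they span the range of behaviour described below, from the strong start sites of Snhg8, a small nucleolar RNA host gene, and Dancr, to a start that was less accessible and a start that was more accessible in untreated knockout cells. They are RefSeq start windows on GRCm38.p6, written along the strand of the lncRNA, with the bases inside the ATAC site in capitals. Snhg8 (chr3:123508287-123508586, minus strand) lay 1.77 kb from Prss12, Dancr (chr5:74092810-74093109, plus strand) 24.5 kb from Usp46, A930006K02Rik (chr16:91464854-91465153, plus strand) 19.9 kb from the interferon receptor gene Ifnar1, and LOC105247329 (chr6:145379382-145379681, minus strand) 9.74 kb from Lmntd1.
Snhg8: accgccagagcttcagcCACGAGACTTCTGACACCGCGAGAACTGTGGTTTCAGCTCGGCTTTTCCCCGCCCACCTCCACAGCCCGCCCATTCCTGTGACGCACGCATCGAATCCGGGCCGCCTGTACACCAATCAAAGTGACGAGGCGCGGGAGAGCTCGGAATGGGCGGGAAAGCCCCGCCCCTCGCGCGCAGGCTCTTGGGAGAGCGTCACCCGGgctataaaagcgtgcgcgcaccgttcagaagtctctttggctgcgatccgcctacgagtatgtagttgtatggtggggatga
Dancr: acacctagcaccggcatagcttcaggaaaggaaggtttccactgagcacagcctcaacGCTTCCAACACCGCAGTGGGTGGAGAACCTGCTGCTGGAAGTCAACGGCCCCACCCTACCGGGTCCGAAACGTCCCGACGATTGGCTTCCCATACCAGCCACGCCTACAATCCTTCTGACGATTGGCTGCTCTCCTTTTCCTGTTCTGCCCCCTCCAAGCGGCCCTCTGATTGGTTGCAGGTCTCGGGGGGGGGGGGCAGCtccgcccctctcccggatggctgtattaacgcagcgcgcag
A930006K02Rik: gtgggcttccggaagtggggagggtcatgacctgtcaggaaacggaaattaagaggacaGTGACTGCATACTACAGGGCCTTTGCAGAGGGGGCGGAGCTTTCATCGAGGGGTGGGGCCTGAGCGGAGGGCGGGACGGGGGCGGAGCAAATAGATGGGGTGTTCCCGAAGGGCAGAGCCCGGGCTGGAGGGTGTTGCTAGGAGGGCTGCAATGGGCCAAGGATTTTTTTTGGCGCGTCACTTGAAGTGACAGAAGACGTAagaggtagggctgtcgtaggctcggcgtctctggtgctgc
LOC105247329: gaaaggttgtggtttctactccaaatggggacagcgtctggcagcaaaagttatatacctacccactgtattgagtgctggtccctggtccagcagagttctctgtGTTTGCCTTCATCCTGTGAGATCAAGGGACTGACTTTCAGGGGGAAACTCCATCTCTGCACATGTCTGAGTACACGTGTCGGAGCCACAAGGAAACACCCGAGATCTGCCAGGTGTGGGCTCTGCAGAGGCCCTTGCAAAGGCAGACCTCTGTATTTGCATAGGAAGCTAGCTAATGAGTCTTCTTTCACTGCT

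The windows of Snhg8, Dancr and A930006K02Rik held 62.0%, 61.3% and 60.3% G or C and 30, 18 and 16 CpG dinucleotides, and that of LOC105247329 held 50.7% and 4. Over all 233 start windows under intergenic sites the median was 53.3% G or C with 7 CpG, against 52.7% and 7 in the 32851 start windows of the RefSeq table. Searched on both strands, the AP-1 motif TGANTCA stood in 13.3% of the 233 windows and 7.81% of all windows, and the CRE motif TGACGTCA in 3.43% and 1.79%. The ETS motif CCGGAAG stood in 6.87% and 8.86%, the GC box GGGCGG in 36.9% and 35.7%, CCAAT in 34.3% and 37.4%, and TATAAA in 12.02% and 13.6%. The 32851 windows were not limited to lncRNAs or to accessible starts, so these shares do not set intergenic lncRNA starts apart. A match to these letters describes the window and does not show that a factor was bound.

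An intergenic site also covered the gene of miR-132 (chr11:75173665-75173865, 2.08 kb from Ovca2), a microRNA induced by CREB in neurons. Its mature arms are given with the seed, bases 2 to 8, in capitals.
miR-132-3p: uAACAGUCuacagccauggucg
miR-132-5p: aACCGUGGcuuucgauuguuac

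The table holds values normalized by the authors, here called signal. Read numbers were inferred from the deposited values, which in each column are whole multiples of a single step. By that measure 3500172 to 13356560 reads per library fell in the listed sites, and the median intergenic site had between 47 and 202 reads in a library. A site's value thus carries counting error of its own in the shallowest library, WT acetate 1. Mitochondrial sites took 1.18% to 2.01% of the signal in KO untreated libraries and 0.20% to 0.66% in the other 7. Columns of the table carry the prefix ATAC1 for the 3 KO untreated libraries and WT untreated 1 and 2, and ATAC2 for the other 5, so every acetate library is ATAC2. For KO, acetate and the prefix cannot be told apart. Replicates correlated over the intergenic sites with r between 0.9645 and 0.9764, except for WT untreated 4, the ATAC2 library of its group, which reached 0.9321 and 0.9204 with its replicates. The sources used here do not say how the deposited sites were chosen. If they were selected on KO against WT untreated, the share of sites called in that comparison would follow from the selection, so such shares describe this table and not the genome.

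In untreated cells intergenic sites as a class had lower signal in the knockout. The median intergenic site had 76.23, 77.53 and 96.95 in the KO untreated libraries, against 159.8, 132.6 and 133.8 in the WT untreated libraries. With acetate the medians were 139.0 and 119.2 in KO libraries, against 144.6 and 141.8 in WT libraries. The 3 KO untreated libraries were the lowest of the 10 and did not overlap any other group. Gene ends, where promoters lie, had higher signal throughout, with medians of 187.0 to 231.7 in KO untreated and 279.3 to 430.1 in WT untreated libraries.

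**Figure D1:**
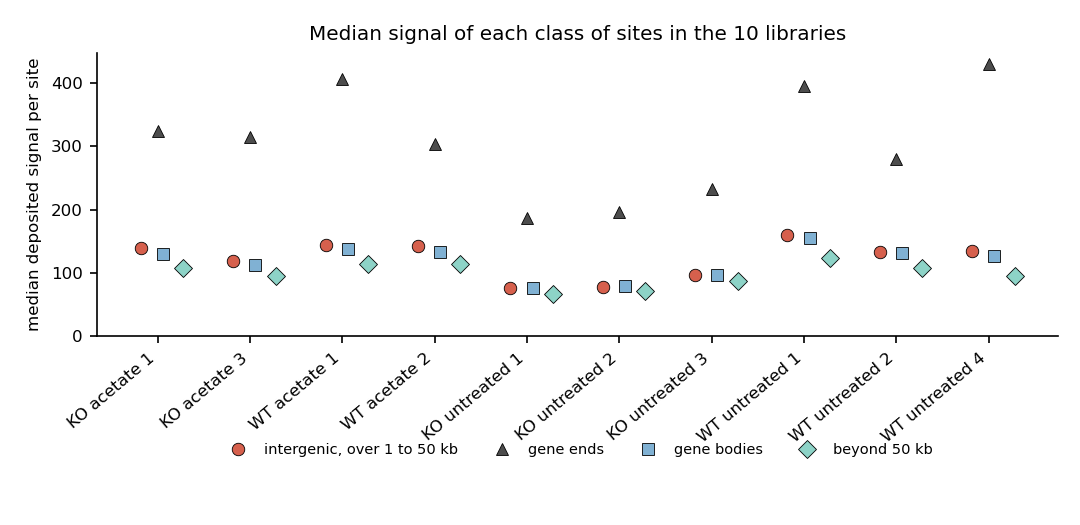
Median deposited signal of the sites in each position class, with 1 point per class and library on a linear axis that starts at 0, for the 10 libraries in their 4 groups. Intergenic medians sit between 76.23 and 96.95 in KO untreated libraries and at 119.2 or above in every other library, and gene ends lie above intergenic sites in all 10 libraries.

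The share of nuclear signal in intergenic sites overlapped between groups when libraries of both prefixes were included. It was 19.98%, 19.64% and 20.18% in KO untreated libraries, against 20.47%, 21.22% and 18.63% in WT untreated libraries, and 20.83% and 19.86% in KO acetate, against 19.76% and 21.41% in WT acetate. An exact permutation test stratified by treatment gave a genotype difference of -0.208 percentage points (two-sided p = 0.717). Within ATAC1 it was -0.9115 points, without overlap of KO and WT untreated (exact permutation p = 0.1, the smallest these 5 libraries allow). Across both prefixes the acetate difference, stratified by genotype, was 0.445 points (exact permutation p = 0.47). Whether fewer cells with an open site or less openness per cell gave a lower value cannot be told apart in these bulk libraries.

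Relative to the other classes no difference in the level of intergenic sites passed adjustment over 6 tests. In log2 units the intergenic median stood 0.08 to 0.09 above that of gene bodies in the 4 acetate libraries, against -0.02 to 0.02 in KO untreated libraries and 0.01 to 0.07 in WT untreated libraries. The acetate difference in this gap was 0.07, stratified by genotype, with an exact permutation p of 0.01, the smallest this design allows, and 0.06 after adjustment over 6 tests. The highest untreated value, 0.07, was that of WT untreated 4, the ATAC2 library, and the 5 ATAC1 libraries had -0.02 to 0.05, so the acetate difference in this gap and the prefix cannot be told apart. The intergenic median stood 0.13 to 0.19 above sites beyond 50 kb in KO untreated libraries and 0.30 to 0.49 above them in WT untreated libraries, without overlap. Stratified by treatment the genotype difference in that gap was -0.11 (exact p = 0.0833, adjusted p = 0.25), and within ATAC1 it was -0.18 (exact p = 0.1, the smallest possible there). At the distance limits, sites 1 to 1.1 kb from a gene (n = 119) had median signals of 87.01 in KO untreated and 170.4 in WT untreated, sites 0.9 to 1 kb away (n = 132) had 71.3 and 127.5, sites 45 to 50 kb away (n = 287) had 79.12 and 129.7, and sites 50 to 55 kb away (n = 252) had 80.76 and 125.6, in the same order of genotypes. The sites just over 1 kb were thus stronger than those just under it, and those on either side of 50 kb were closer to each other. These medians are given without a test.

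Without acetate nearly every intergenic site differed between the genotypes as deposited, mostly with lower signal in the knockout. In limma on log2(signal + 1), with p-values adjusted over all 39657 sites and called under 0.05, 8739 of 9817 intergenic sites were lower and 915 higher in KO untreated than in WT untreated. Over all sites 89.6% were lower and 9.07% higher, 98.7% in all. The median log2 difference of intergenic sites was -0.87, against -0.84 for all sites, so most of it was a shift of the whole table. After cyclic loess, a rescaling that takes most sites to be alike between libraries, 305 intergenic sites were lower and 953 higher, against 2.41% lower and 9.35% higher of all sites. All 305 and all 915 were called the same way on both scales. Loess moved the median difference of intergenic sites up to -0.01, so this agreement largely followed from the shift and is no separate support. In either direction 1258 intergenic sites were called after loess, 1555 with equal totals and 1383 with median-of-ratios factors, against 11.8%, 14.4% and 13% of all sites. The size and direction of a difference near the median thus rest on the scaling, and values after loess are given beside the main differences below. Within the ATAC1 libraries alone, 8639 sites were lower and 895 higher as deposited.

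Over all intergenic sites the share that was higher in KO untreated grew with distance from genes, and it was greatest among weak sites. As deposited, 1.496% of sites at gene ends were higher, then 7.21% of intergenic sites up to 5 kb from a gene (n = 2789), 9.18% from 5 to 20 kb (n = 4162), 11.6% from 20 to 50 kb (n = 2866) and 22.2% of sites beyond 50 kb, while gene bodies had 10.8%. When intergenic sites were ordered by mean signal and split into 5 equal parts, 24.95% of the weakest part (mean signal 15.01 to 58.78) were higher, then 9.42%, 7.54%, 3.67% and, in the strongest part (271.3 to 1231), 1.02%. Within the weakest part the share was 20.2% up to 5 kb, 26.6% from 5 to 20 kb and 26.9% from 20 to 50 kb. In the next parts it was 7.47%, 8.22% and 13.1%, then 4.94%, 6.85% and 11.4%, then 3.36%, 4.11% and 3.33%, with no growth in that part. Within the strongest it was 0.714%, 0.716% and 1.77%. Mean signal includes the libraries compared, so these shares are descriptions without a test. Whether weak sites were counted or called differently between libraries was not tested. Sites upstream of their nearest gene (374 of 4397 higher, 3942 lower) and downstream of it (309 of 3312 higher, 2957 lower) had similar proportions.

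**Figure D2:**
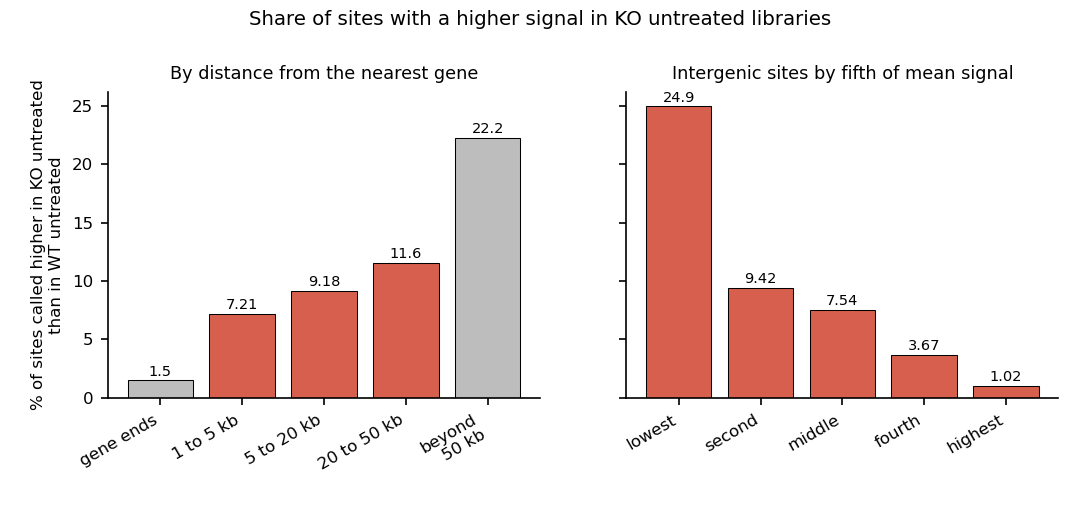
Percent of sites called higher in KO untreated than in WT untreated cells, as deposited, by distance from the nearest gene (left; intergenic bands in red, other classes in grey) and, for intergenic sites, by mean signal in 5 equal parts (right). The share rises from 1.496% at gene ends to 22.2% beyond 50 kb, and within intergenic sites it falls from 24.95% in the weakest part to 1.02% in the strongest.

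Of the 217 sites at lncRNA starts 210 (96.77%) were lower and 5 (2.304%) higher as deposited, against 89.6% and 9.07% of all sites. After loess 14 (6.452%) were lower and 7 (3.226%) higher, against 2.41% and 9.35%. Snhg8 had signals of 523, 543 and 597 in KO untreated libraries, against 909, 632 and 1088 in WT untreated libraries. Its log2 difference was -0.63 ± 0.18 (SE, adjusted p = 0.00124) as deposited and 0.04 after loess. Every KO library lay below every WT library, but the loess value was close to 0. Dancr differed by -0.51 ± 0.18 (SE, adjusted p = 0.00654) as deposited and 0.16 after loess, with the genotypes in the same order as at Snhg8. The start of A930006K02Rik near Ifnar1, an lncRNA of no stated function, had 326, 377 and 403 in KO untreated, against 835, 583 and 963 in WT untreated. It fell by 1.08 ± 0.19 on the log2 scale (SE, adjusted p = 7.51e-07) and was also lower after loess (-0.39, adjusted p = 0.0217). LOC105247329 went the other way, with 157, 166 and 196 in KO untreated, against 93.7, 56.3 and 78.5 in WT untreated libraries, a log2 difference of 1.20 ± 0.25 (SE, adjusted p = 1.66e-05) and 2.11 after loess. The 3 KO libraries stood clear above the WT libraries. The site over Mir132 had 149, 154 and 203 in KO untreated, against 403, 258 and 441 in WT untreated, a log2 difference of -1.09 (adjusted p = 5.92e-06), which was -0.29 and not called after loess. The site over Mir196a-1 in the Hoxb cluster (chr11:96265093-96265293) was higher in KO untreated, at 54.9 ± 6.76 against 27.6 ± 5.53 in WT untreated (SD, n = 3 each), a log2 difference of 0.98 (adjusted p = 0.00328) and 1.86 after loess.

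The site with the largest rise in KO untreated among well-covered sites lay 2.79 kb upstream of Fscn1, between Fscn1 and Actb (chr5:142957360-142957560). Fscn1 encodes fascin, which bundles actin filaments. It had signals of 230.3, 283 and 312 in KO untreated libraries, against 115, 116 and 69.7 in WT untreated libraries. All KO values were above all WT values, with a log2 difference of 1.48 ± 0.23 (SE, adjusted p = 3.2e-08) and 2.34 after loess. Upstream of Myog (chr1:134283001-134283201), the gene of the muscle transcription factor myogenin, KO untreated libraries had 210, 272 and 350 and WT untreated libraries 99.9, 99.5 and 95.1, a log2 difference of 1.46 (loess 2.31). A site 28.1 kb from Gclc (chr9:77726261-77726461), the catalytic subunit of the enzyme that starts glutathione synthesis, had 218, 342 and 338 in KO untreated, against 109, 156 and 134 in WT untreated. Again the groups did not overlap, and the log2 difference was 1.15 (loess 1.99). The other sites among the 10 largest rises were nearest to Mc5r, Lag3, Tbca, Hivep3, Olfr1414, Lrpap1 and Nectin1. All 10 were also called higher after loess, which moved most sites up and so could hardly undo a rise.

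Among the same well-covered sites, those of at least median signal, the largest fall lay 36.4 kb upstream of Plb1, a phospholipase gene (chr5:32196086-32196286). The site lay between Plb1 and Fosl2, an AP-1 family transcription factor gene. Signals were 43.9, 45.8 and 63.9 in KO untreated, against 274, 249 and 202 in WT untreated libraries. The highest KO library was thus far below the lowest WT library, with a log2 difference of -2.23 ± 0.23 (SE, adjusted p = 3.24e-15) and -1.37 after loess. A site on the other side of Fosl2, 2.64 kb upstream (chr5:32133634-32133834), had 208, 189.6 and 238 in KO untreated, against 716, 633 and 789 in WT untreated. It too fell, with log2 differences of -1.75 as deposited (adjusted p = 7.15e-13) and -1.01 after loess (adjusted p = 7.32e-06). Downstream of Gadd45g (chr13:51859848-51860048), a stress-induced gene that feeds into p38 signalling in T cells, KO untreated libraries had 40.03, 58.9 and 55.6 and WT untreated libraries 315, 316 and 108. WT untreated 4 stood well below its replicates there but above the KO libraries. Near Gimap7 (chr6:48727900-48728100), a lymphocyte GTPase gene, the values were 137, 128 and 157 in KO untreated, against 682, 455 and 399 in WT untreated, a log2 difference of -1.82 (loess -0.9991). The other 7 of the 10 largest falls were nearest to D630003M21Rik, Ttc30a2, Slc41a2 (a magnesium transporter), Dnajc11 (a mitochondrial chaperone), S1pr3 (a sphingosine 1-phosphate receptor), Lzts1 and Alg14. All 10 were also lower after loess, Gadd45g with an adjusted p of 0.00636.

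**Figure D3:**
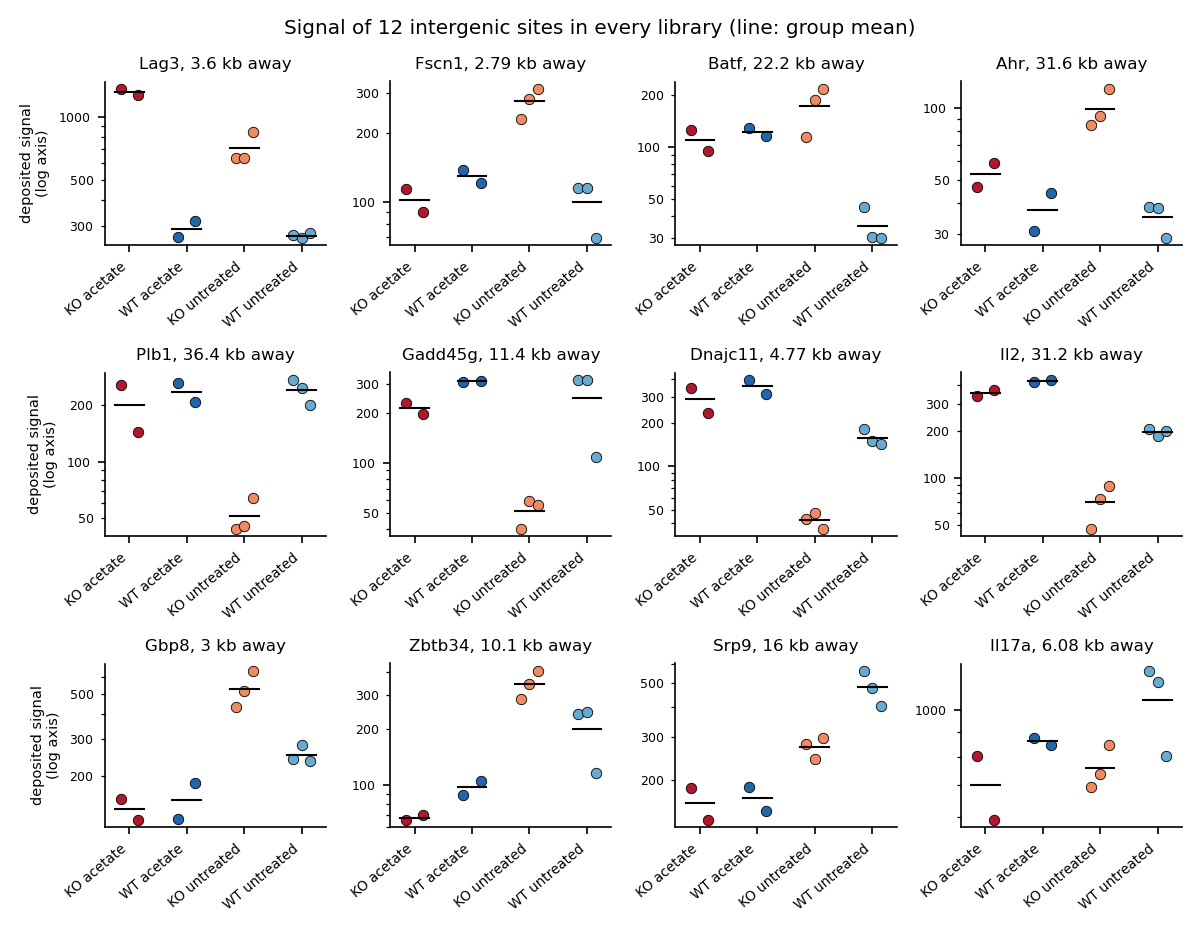
Deposited signal of 12 intergenic sites in each library, on log axes, with 1 point per library and a line at the group mean, in the order KO acetate, WT acetate, KO untreated and WT untreated. At the Fscn1 site the KO untreated libraries sit at 230.3 to 312.1, above the other 7, and at the Plb1 site they sit at 43.87 to 63.85, below the other 7.

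At genes of the Th17 cell state the sites followed the shift of the table, with a few exceptions that rose. Of 30 loci looked up, 26 had at least 1 intergenic site, and those with none included Pdha1 and Acss2. Il17a, the signature cytokine gene, had 6 sites, all lower as deposited and none called after loess. Its strongest site (chr1:20740575-20740775, 6.08 kb downstream) had 690.4, 737 and 847 in KO untreated, against 1204, 1140 and 801 in WT untreated. KO untreated 3 overlapped WT untreated 4, and the log2 difference of -0.45 ± 0.18 (SE, adjusted p = 0.0137) turned to 0.20 after loess. That call was lost without KO untreated 1, without KO untreated 2 or without WT untreated 1, and the Ccr6 call without KO untreated 1 or without WT untreated 1. Sites near Il17f (3), the Il23r receptor gene (1) and the chemokine receptor gene Ccr6 (1) were all lower as deposited and none was called after loess. So 4 marker genes of the labelled cell type had accessible intergenic sites.

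The site 22.2 kb upstream of Batf (chr12:85664336-85664536) had the largest rise among these loci. BATF is an AP-1 family factor that Th17 differentiation needs. The site had 114, 189 and 218 in KO untreated, against 45.0, 30.1 and 29.9 in WT untreated libraries. Every KO library was above every WT library, and the log2 difference was 2.25 ± 0.25 (SE, adjusted p = 3.01e-13) and 3.16 after loess. With acetate it had 126 and 95.0 in KO and 129 and 116 in WT libraries, so WT untreated was the low group. The 2 KO acetate values were lower than the KO untreated mean, with a log2 difference of -0.61 (adjusted p = 0.0494, loess -1.34). Near Ahr, the aryl hydrocarbon receptor gene, a site 31.6 kb away (chr12:35566595-35566795) had 85.0, 92.5 and 119 in KO untreated, against 38.7, 38.2 and 28.8 in WT untreated, a log2 difference of 1.46 ± 0.28 (SE, adjusted p = 6.63e-06) and 2.38 after loess. The other Ahr site was lower. Near Maf, a factor of IL-10 and IL-21 control, 1 of 2 sites was higher (chr8:115722072-115722272), at 109 ± 11.6 in KO untreated against 74.4 ± 14.3 in WT untreated (SD, n = 3 each). Its log2 difference of 0.56 (adjusted p = 0.0207) lost its call without KO untreated 2, without KO untreated 3 or without WT untreated 1, and was 1.46 and called after loess.

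Among partner factors and cytokines, the Runx1 site 41.2 kb upstream (chr16:92867255-92867455) had 86.7, 101 and 143 in KO untreated, against 389.6, 317 and 258 in WT untreated. Without overlap of the groups, it fell by 1.55 on the log2 scale (adjusted p = 2.01e-09) and was lower after loess too (-0.71, adjusted p = 0.00483). Runx1 encodes a transcription factor of T cell development. Between Il2 and Il21, 31.2 kb upstream of Il2 (chr3:37157120-37157320), KO untreated libraries had 47.2, 73.8 and 88.7 and WT untreated libraries 207, 188 and 200.1, a log2 difference of -1.54 (loess -0.69, adjusted p = 0.00904). Of 10 sites near Il21, the cytokine gene that sustains Th17 cells, 9 were lower and none was called after loess. All 14 sites near Ctla4 and all 11 near Icos, genes of an inhibitory and a stimulatory receptor, were lower, with 2 and 0 of them lower after loess. Of all sites 89.6% were lower as deposited and 2.41% after loess. Near Ets1, 8 of 9 sites were lower and 1 higher.

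Grouped by gene lists, most sites were lower, as were most of all sites (89.6% lower and 9.07% higher, with a median log2 difference of -0.84). In the lists with at least 18 sites 92.16% to 100% were lower and 0% to 5.882% higher, and no test set a list against other sites. Of 76 sites near genes of the Th17 programme, 71 were lower and 3 higher, with a median log2 difference of -0.92, and after loess 3 were lower and 3 higher. Bhlhe40, a transcription factor of cytokine-producing T cells (chr6:108668290-108668490), fell by 1.52 and Lif by 1.49 on the log2 scale, both also lower after loess. Of 51 sites near Th1 genes 47 were lower and 3 higher, and after loess 3 were lower and 3 higher. Among the lower were a site 23.3 kb from Ifng (-1.71, loess -0.79) and a site 22.1 kb from the granzyme gene Gzmb (-1.41, loess -0.59). Of the 5 sites near Ifng 3 were lower and 1 higher, and the strongest was not called on either scale (-0.38, loess 0.42). Of 28 sites near Th2 genes 27 were lower, as were all 48 near regulatory T cell genes and 88 of 90 near naive and memory genes, including Cd27 (-1.55, loess -0.71). Near activation genes 94 of 97 were lower and 2 higher. In that list Egr2, an immediate early factor, had 17.0, 18.7 and 31.9 in KO untreated, against 97.4, 98.5 and 64.1 in WT untreated at a weak site 44.3 kb away.

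Near genes of pyruvate dehydrogenase and the TCA cycle 25 of 26 sites were lower and none was called after loess. The smallest adjusted p was near Pdhx, the E3-binding component of the complex, at chr2:102986557-102986757, with 29.1, 43.9 and 34.3 in KO untreated against 147, 119 and 60.8 in WT untreated. Near genes of citrate export, acetyl-CoA and lipid synthesis all 18 were lower and none was called after loess, including a site 16.2 kb from the desaturase gene Scd1 (-1.63, loess -0.70) and the site upstream of Acly, the ATP citrate lyase gene (-0.89, loess -0.05). Of 9 sites near histone acetyltransferase and deacetylase genes 8 were lower.

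Few intergenic sites were nearest to marker genes of other cell types. The B cell list had 2 (both Ebf1, lower), the CD8 list 1 (Gzmk, lower), the myeloid list 2 (Itgam, 1 higher and 1 lower), the NK and innate lymphoid list 8 (all lower) and the γδ list 3. Of the γδ sites 2 near Sox4, a transcription factor gene, rose, and the larger rise (chr13:28928860-28929060) had 58.7, 70.1 and 85.1 in KO untreated against 36.2, 21.1 and 33.2 in WT untreated. Summed over the NK list the signal was 1487 to 1718 in KO untreated and 2330 to 3629 in WT untreated, and over the γδ list 351.0 to 426.8 and 402.5 to 487.0 in the same genotypes. The part of other cell types in the results was not tested.

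With acetate in both genotypes hardly any intergenic site was called between KO and WT cells. Of 9817 intergenic sites 1 was called, higher in KO, against 0.0227% of all sites, and none lower. Without WT acetate 2 there were 8. At an unadjusted p under 0.05 there were 243, and the median log2 difference was -0.16, against -0.15 for all sites. The site called lay between Lag3, an inhibitory receptor gene, and Cd4 (chr6:124900561-124900761, 3.6 kb from Lag3). It had 1360 and 1278 in KO acetate libraries, against 268 and 318 in WT acetate libraries, a log2 difference of 2.17 ± 0.24 (SE, adjusted p = 8.76e-13) and 2.34 after loess. Without acetate it had 640, 637 and 849 in KO, against 272, 264 and 278 in WT libraries, a difference of 1.37 ± 0.20 (SE, adjusted p = 4.8e-09) (2.0999 after loess). All 5 KO libraries lay above all 5 WT libraries, and the 2 KO acetate libraries were the highest. The Cre transgene of the KO cells carries Cd4 regulatory sequence, so extra copies of such sequence and openness of the chromosomal site cannot be told apart here.

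Acetate in KO cells went with more open intergenic sites as deposited. Of 9817 sites 5612 were higher and 570 lower in KO acetate than in KO untreated, against 54.6% higher and 5.94% lower (60.6% together) of all sites, with a median log2 difference of 0.66 against 0.61. After loess the split was 1371 higher and 1649 lower, against 11.5% and 16.7% of all sites, so more sites were lower than higher on that scale. In either direction 3020 were called after loess, 3233 with equal totals and 3191 with median-of-ratios factors, against 28.2%, 29.5% and 29.2% of all sites. As deposited the 6182 calls became 3321 without KO acetate 1. Downstream of Cmip (chr8:117470412-117470612), which encodes a c-Maf inducing protein, KO acetate libraries had 359.8 and 256 and KO untreated libraries 31.3, 50.4 and 56.8, a log2 difference of 2.74 ± 0.26 (SE, adjusted p = 9.15e-17) and 2.05 after loess. The groups lay far apart. In WT the same site had 428 and 322 with acetate, against 125, 109.5 and 191 without, and rose as well (1.42, loess 1.45).

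The Il2–Il21 site described above had 340.2 and 369.5 in KO acetate, against 47.2, 73.8 and 88.7 in KO untreated (2.37 ± 0.24, SE, adjusted p = 2.73e-15), and 419 and 428 in WT acetate, against 207, 188 and 200.1 in WT untreated. Both acetate groups lay above both untreated groups. The Dnajc11 site (chr4:151928754-151928954, beside Camta1) had 350.4 and 234 in KO acetate, against 43.3, 47.6 and 36.7 in KO untreated, a log2 difference of 2.73 (loess 2.04), and 397 and 319 in WT acetate, against 182, 149 and 142 in WT untreated (1.18, loess 1.20). Upstream of Runx3 (chr4:135114481-135114681), a factor of cytotoxic and Th1 cells, KO acetate had 444 and 399.7 and KO untreated 69.1, 107 and 91.0. Upstream of Cd27 (chr6:125238506-125238706), a costimulatory receptor gene, KO acetate had 461 and 324 and KO untreated 80.1, 81.3 and 93.4. The other sites among the 10 largest rises were nearest to Lzts1, S1pr3, Alg14, Klri2 and A630001G21Rik, and all 10 were called after loess too.

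At all 10 sites with the largest falls every KO untreated library lay above every WT untreated library, and the 2 comparisons share the KO untreated libraries. Downstream of Zbtb34 (chr2:33395826-33396026), a zinc finger gene, KO acetate libraries had 65.7 and 69.4 and KO untreated libraries 287, 343 and 404, a log2 difference of -2.32 ± 0.25 (SE, adjusted p = 1.04e-13) and -3.00 after loess. WT libraries had 89.2 and 106 with acetate and 239, 245 and 116 without. Between Gbp8 and Gbp9 (chr5:105056606-105056806), genes of interferon-induced GTPases, KO acetate had 155 and 122, against 432, 512 and 643 in KO untreated (-1.91 ± 0.24, SE, adjusted p = 1.7e-11). The Fscn1 site had 114 and 90.5 in KO acetate, against the 230.3 to 312.1 given above for KO untreated, and fell by 1.42 on the log2 scale (-2.101 after loess). The remaining large falls were near Hivep3, Tbata, Ptk2 (focal adhesion kinase), Lrrc28, Tgfbi (a matrix protein), Tmem243 and Kcng3, and all 10 were called lower after loess. Loess moved this comparison down at most sites, so that agreement is no separate support. The site over Mir132 rose, with 426 and 403 in KO acetate against 149, 154 and 203 in KO untreated, a log2 difference of 1.30 (adjusted p = 1.73e-06) and 0.70 after loess (adjusted p = 0.00407).

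By gene list, 52 of 76 Th17 sites (68.42%) were higher and 2 (2.632%) lower with acetate in KO, against 54.6% and 5.94% of all sites, and the median was 0.83. After loess 18 were higher and 11 lower, where all sites had 11.5% higher and 16.7% lower. For Th1 the numbers were 40 of 51 higher and 2 lower, and after loess 10 and 4. In the list of citrate export, acetyl-CoA and lipid synthesis 15 of 18 were higher and none lower, with a median of 1.09, and after loess 6 were higher and 2 lower. The Acly site had 365 and 279 in KO acetate, against 78.4, 122 and 112 in KO untreated (1.63 ± 0.24, SE, adjusted p = 9.14e-09). The 2 libraries with acetate were above all 3 without. At lncRNA starts 144 of 217 sites (66.36%) were higher and 2 (0.9217%) lower, and after loess 28 (12.9%) were higher and 19 (8.756%) lower, beside the same shares of all sites. A930006K02Rik had 917 and 775 in KO acetate, against 326, 377 and 403 in KO untreated (1.20, loess 0.75), and LOC105247329 had 54.6 and 75.4, against 157, 166 and 196, and fell by 1.41 on the log2 scale (-2.14 after loess).

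Between WT acetate and WT untreated fewer intergenic sites were called than in KO, in both directions. In KO acetate and the prefix cannot be told apart, so these counts do not compare the effect of acetate between genotypes. Of 9817 sites 375 were higher and 277 lower in WT acetate than in WT untreated, against 2.91% higher and 3.02% lower of all sites, and the median log2 difference was 0.01 against -0.03. After loess 567 were higher and 364 lower, against 4.43% and 4.07% of all sites. The 652 calls rested on single libraries and became 95 without WT acetate 1, 250 without WT acetate 2, 290 without WT untreated 1 and 1105 without WT untreated 4. Within ATAC2, where WT untreated 4 is the only untreated WT library and its spread is taken from the other groups, 685 were higher and 77 lower, so the split between directions was not stable.

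Among the 10 largest rises in WT, the site near the chemokine gene Ccl5 (chr11:83534989-83535189) had 339 and 262 in WT acetate libraries, against 122, 133 and 121 in WT untreated libraries, a log2 difference of 1.24 ± 0.25 (SE, adjusted p = 0.00035) whose call was lost without WT acetate 1. Near Cd70 (chr17:57154017-57154217), the ligand gene of CD27, WT acetate had 262 and 236 and WT untreated 104, 103 and 106 (1.25 ± 0.24, SE, adjusted p = 0.0002). The untreated values were nearly equal and well below the acetate values. Between Fas and Ch25h (chr19:34451034-34451234), the cholesterol 25-hydroxylase gene, WT acetate had 317 and 325 and WT untreated 175, 161 and 91.8. Between Il21 and Cetn4 (chr3:37287621-37287821) they had 314 and 342, against 155, 153 and 129. Of the 2 sites nearest to Il2, 1 was higher with acetate in WT, and none of the 10 nearest to Il21 was called. Over all sites 2.91% were higher and 3.02% lower. The strongest Il21 site (chr3:37209643-37209843) went the other way, at 304.6 and 218.3 in WT acetate, against 493.2, 412.9 and 318.4 in WT untreated. Its log2 difference was -0.64 and was not called. Cmip, Fndc1, Nav1, Fgf16, Padi1 and Dnajc11 completed the 10. Calls of Fgf16 and Dnajc11 were lost without WT acetate 1, and that of Nav1 within ATAC2.

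Falls in WT with acetate included a site upstream of Srp9, a signal recognition particle gene (chr1:182108562-182108762), with 188 and 149.5 in WT acetate, against 559, 474 and 404 in WT untreated (-1.50 ± 0.24, SE, adjusted p = 3.47e-06). The groups did not overlap. The same site had 185 and 137 in KO acetate, against 280.2, 245 and 297 in KO untreated. A site 24.3 kb downstream of Art2b (chr7:101551189-101551389), a T cell surface ADP-ribosyltransferase gene, had 102 and 98.99 in WT acetate, against 369.6, 284 and 226 in WT untreated (-1.51, loess -1.49). The others were near Cited4, Emsy, Gm52008 beside Bcl11b, Nabp1, Gbp8 (8.88 kb away), Sobp, Dnah8 and Klhl25. All 10 were lower after loess, but Sobp, Dnah8 and Klhl25 were not called within ATAC2. Gbp8 lost its call without WT acetate 1, Dnah8 and Klhl25 without WT acetate 2, and Klhl25 without WT untreated 1.

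The interval from Lrrc32, the gene of GARP, which holds latent TGFβ on the cell surface, to Emsy, a BRCA2-binding repressor gene, was noticed after its values were seen and is described without a test. It held 15 intergenic sites over 72.7 kb (chr7:98513334-98586068). With acetate in WT 8 were lower and none higher, 14 of 15 differences were below 0, and the median log2 difference was -1.20 (-1.18 after loess). In KO the median was 0.10 as deposited, with 1 site higher, and -0.68 after loess, with 7 sites lower. The 15 sites took 0.0619% and 0.0766% of the intergenic signal in KO acetate libraries and 0.0790% and 0.0620% in WT acetate libraries, against 0.100%, 0.0985% and 0.0969% in KO untreated and 0.147%, 0.136% and 0.0971% in WT untreated libraries. As a share of intergenic signal all 4 acetate libraries were below all 6 untreated libraries, with WT untreated 4 the lowest WT untreated library.

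**Figure D4:**
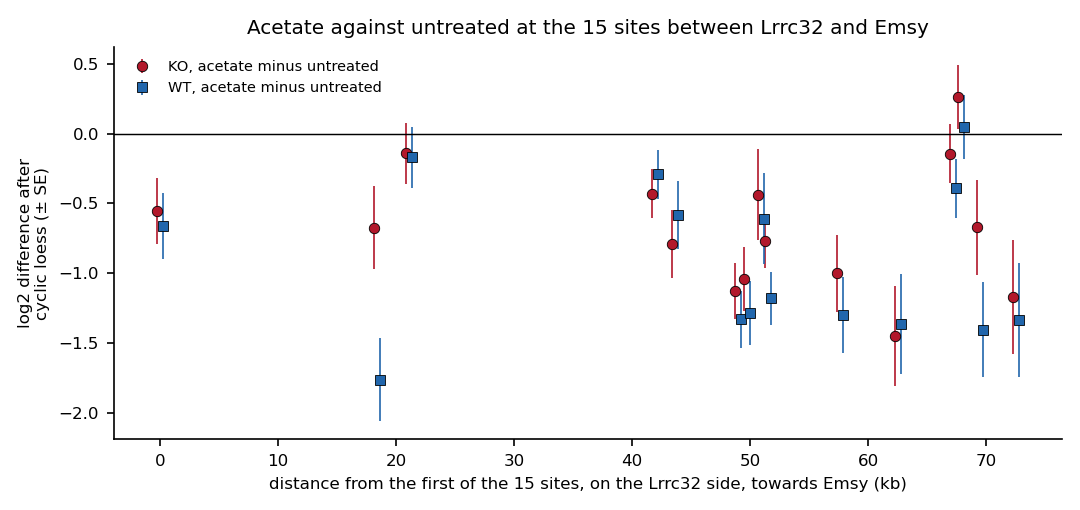
Log2 difference of acetate minus untreated after cyclic loess (points) with its SE (bars) at the 15 intergenic sites between Lrrc32 and Emsy, against distance along the interval in kb, for KO (circles) and WT (squares). In both genotypes 14 of 15 sites lie below 0, with a median of -0.68 in KO and -1.18 in WT.

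Intergenic sites were spread over 4728 nearest genes, of which 2605 had 1 site and 412 had at least 5. Cd2, a T cell adhesion gene, had the most with 19 over 91.5 kb, followed by Dad1 with 18 over 40.2 kb, and Ccr7, the lymph node homing receptor gene, and Irf2bp2 with 15 each. The 18 Dad1 sites lay in and beside joining and constant segments of the T cell receptor α locus. Such segments were not counted as protein-coding genes here. Chd7, Ctla4, Emb, Emsy and Ifnar1 had 14 each. In KO untreated all sites of all 9 genes were lower as deposited, with medians between -1.34 at Chd7 and -0.96 at Emb, and between 1 and 4 sites per gene were lower after loess and none higher. Of all sites 89.6% were lower as deposited, with a median of -0.84, and 2.41% were lower and 9.35% higher after loess. With acetate in KO, 12 of 19 Cd2 sites, 13 of 15 Ccr7 sites, all 14 Ifnar1 sites and 1 of 14 Emsy sites were higher and none lower, where 54.6% of all sites were higher. After loess 2 Cd2 sites, 4 Ccr7 sites and 3 Ifnar1 sites were higher and none lower, and 8 of 14 Emsy sites were lower and none higher. Over all sites 11.5% were higher and 16.7% lower on that scale.

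The 5 strongest intergenic sites were nearest to Ccr7, Il4ra, Zswim4, Wee1 and Dad1. The strongest lay between Ccr7 and Smarce1 (chr11:99170980-99171180), with 841, 1094 and 1142 in KO untreated, against 1563, 1444 and 1449 in WT untreated (-0.55, loess 0.03). The KO libraries were lower without overlap, but the loess difference was close to 0. A site over the T cell receptor α constant segment Trac, downstream of Dad1 (chr14:54222503-54222703), had 699.8, 815 and 834 in KO untreated, against 1294, 1147 and 1517 in WT untreated, and 1398 and 1029 in KO acetate, against 1378 and 1224 in WT acetate. KO untreated was the low group there (-0.75), a difference not called after loess (-0.15). The site near Zswim4 (chr8:84198461-84198661) differed by -0.80 between KO and WT untreated (loess -0.21, not called) and by 0.72 with acetate in KO (0.39 and called after loess). The site near Il4ra, beside Il21r (chr7:125588805-125589005), differed by -0.41 as deposited and by 0.17 after loess, and that near Wee1, a cell cycle kinase gene (chr7:110109088-110109288), by -0.33 and 0.25. At both sites the sign turned with the scaling, and neither was called after loess.

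The effect of acetate differed between the genotypes at 1991 intergenic sites above 0 (a more positive acetate difference in KO than in WT) and 369 below 0, against 19.5% and 3.61% (23.1% together) of all sites, with a median interaction of 0.69 against 0.67. After loess 18 were above 0 and 759 below, against 0.139% and 7.36% of all sites. In either direction 777 were called after loess, 624 with equal totals and 703 with median-of-ratios factors, against 7.5%, 5.95% and 6.76% of all sites. All 369 sites called below 0 and 18 of the 1991 called above 0 were called in the same direction on both scales. Loess moved the median interaction down to -0.01, so the agreement below 0 largely followed from that shift. The interaction shares KO untreated and WT untreated libraries with the comparisons above. Its 2360 calls became 120 without KO acetate 1, 1244 without KO acetate 3, 938 without WT acetate 1 and 485 without WT acetate 2. They became 402 without KO untreated 1, 615 without KO untreated 2, 591 without WT untreated 1, 3976 without WT untreated 2 and 3734 without WT untreated 4. Because the KO untreated libraries are all ATAC1 and the acetate libraries all ATAC2, the interaction and the prefix cannot be fully told apart. Below 0 stood the Batf site (-2.41 ± 0.39, SE, adjusted p = 2.31e-05), Fscn1 (-1.82), Olfr1414 (-1.62) and Myog (-1.49). At all 4 sites the WT acetate libraries lay above the WT untreated libraries. The KO acetate libraries lay below the KO untreated libraries at Fscn1, Olfr1414 and Myog, while at Batf KO acetate 1 lay above KO untreated 1. Above 0 and called on both scales stood the Plb1 site (1.94 ± 0.36, SE, adjusted p = 0.000271), with 256 and 145 in KO acetate, against 43.9, 45.8 and 63.9 in KO untreated, and 265 and 209 in WT acetate, against 274, 249 and 202 in WT untreated. There acetate and untreated values overlapped in WT and lay apart in KO.

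Over 2719 genes with both an intergenic site and a site at a gene end, the differences at the strongest intergenic site of a gene and at its strongest gene-end site were almost unrelated. Pearson's r across genes, which are not independent and share libraries, was 0.10 as deposited and 0.13 after loess for KO against WT untreated, 0.04 and 0.06 for acetate in KO, and 0.09 and 0.09 for acetate in WT. Mean log2 signal had an r of 0.01. These are descriptions with no test.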

How the data were processed

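Omni-ATAC libraries of 10 Th17 cultures were analysed from the authors' deposited table of signal per site. The table's values are normalized counts, the unit signal here: per the submitters' processing notes build GRCm38, deepTools 3.5.1, DiffBind 3.6.1, DESeq, DESeq2, Genrich, Picard 2.10.9, BWA 0.7.16a and FastQC 0.11.5 were used, with no roles given. In each column 100.0% of values were whole multiples of a single step within 0.001. The count test was not run on them, and depth was taken from them. The deposited scaling sets levels across libraries, and the 3 other scalings tried remove a shift shared by most sites.

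Sites were placed on the RefSeq GRCm38.p6 gene table with Python 3.11.15. Log2(signal + 1) was fitted with limma 3.58.1 (trend, robust, R 4.3.3), with 4 group means over 10 libraries. Benjamini-Hochberg adjustment ran over 39657 sites, called under 0.05. The fit was tried on simulated data in which a small part of the sites differed. Those data held no shift of the whole table and no prefix, so the trial cannot tell how either bears on the counts. Class measures were tested with exact permutation tests stratified by the other factor. Named were the 10 largest rises and 10 largest falls per comparison among called sites of at least median signal whose groups did not overlap, 1 per gene, the strongest site of each of 30 loci, up to 4 called sites per gene list, the 5 genes with most sites and the 5 strongest sites. Loci and lists were chosen with earlier results of these data known, while the intergenic sites were taken by position. Alternatives were 3 scalings, a pseudocount of 5, a mean signal of at least 20, single prefixes, each library left out, the replicate number as a block, sites over 5 kb away and sites of the commonest width. Intervals for single sites were not computed. SDs are between libraries, and SEs come from limma, which pools a site's spread with that of other sites of similar signal. For KO against WT untreated the SE as deposited was 0.2193 at the strongest Bcl6 site and 0.2145 at that of Lef1. Their WT untreated SDs were 121.0 and 21.54.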

Additional observations from a re-analysis of the deposited data

Results flagged for a closer look

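The effect of acetate differed between KO and WT, by the interaction in the same limma fit, at 2360 intergenic sites and at 47 of the sites named above or fixed in the list of loci. At 29 of the 47 the acetate difference was more positive in KO. In log2 units the interaction was Plb1 1.94, Slc41a2 1.62, S1pr3 1.61, Exoc6 1.60, Gadd45g 1.56, Dnajc11 1.55, Alg14 1.55, Cd27 1.54, Med11 1.51 and Klhl25 1.4999. It was Lzts1 1.47, Gimap7 1.45, D630003M21Rik 1.41, Ttc30a2 1.39, Cmip 1.31, Il2 1.28, Runx1 1.22, Runx3 1.11, Klri2 1.09 and A630001G21Rik 1.04 at the next sites in size. At the others above 0 it was Nabp1 1.02, Il17f 1.01, Acly 0.99, Il2ra 0.93, Irf4 0.92, Emsy 0.92, Nr4a1 0.80, Lag3 0.80 and Ctla4 0.77. Of these 29, Plb1 and Alg14 were called after cyclic loess as well, and none changed sign. Exoc6 (vesicle tethering), Med11 (a Mediator subunit) and a Klhl25 site 18.7 kb from the gene were named through this comparison alone.

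At 18 of the 47 the acetate difference was more negative in KO. The interaction was Batf -2.41, Fscn1 -1.82, Olfr1414 -1.62, Mc5r -1.60, Tbata -1.52, Myog -1.49, Ptk2 -1.46, Cdc42bpa -1.40 and Nectin1 -1.39. At the rest it was Lrpap1 -1.39, Zbtb34 -1.37, Hivep3 -1.36, Tbca -1.34, Tmem243 -1.22, Gbp8 -1.17, Gclc -1.11, Cd70 -0.93 and Lrrc28 -0.86. All 18 were called below 0 after loess, which moved most interactions down and so could hardly undo such a call. Acetate libraries all carry the ATAC2 prefix and KO untreated libraries ATAC1, so these differences and the prefix cannot be told apart. The groups hold 2 or 3 libraries, so no single library could be called an outlier in them.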

How the results depend on the processing

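The scaling of the libraries decided most counts. For KO against WT untreated 9654 sites were called as deposited, against 1258 after cyclic loess, 1555 with equal totals and 1383 with median-of-ratios factors. For acetate in KO the counts were 6182, 3020, 3233 and 3191 in the same order, and for the interaction 2360, 777, 624 and 703. For KO against WT with acetate 1 site was called, 2 within ATAC2. Another pseudocount (5) and a mean signal of at least 20 kept the counts within 1.5 times. Sites over 5 kb away and sites of the commonest width were counted in the same fit, so no call could change there. Their counts followed from the number of sites kept and were also within 1.5 times. The exception was KO against WT with acetate, with 0 calls over 5 kb away, since its 1 site lies closer. The strongest sites at 13 fixed loci turned from below 0 to above 0 in KO against WT untreated. In log2 units they became Il17a 0.20, Il17f 0.079, Il23r 0.0065, Il21 0.0955, Ccr6 0.22, Ifng 0.42, Gata3 0.20, Icos 0.20, Bcl6 0.0844, Bach2 0.10, Lef1 0.17 and Myc 0.14 after loess. With equal totals they became Il17a 0.28, Il21 0.0089, Ccr6 0.0113, Ifng 0.35, Gata3 0.17, Icos 0.20, Bach2 0.21, Ets1 0.0648, Lef1 0.0578 and Myc 0.12, and with median-of-ratios factors Il17a 0.35, Il21 0.0784, Ccr6 0.0801, Ifng 0.42, Gata3 0.24, Icos 0.27, Bcl6 0.0508, Bach2 0.28, Ets1 0.13, Lef1 0.13 and Myc 0.19. Of 1779 alternatives over 107 site results 1652 kept direction and call, 90 lost the call, 33 turned and 4 gained it. The cause was not tested.

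Leaving out 1 library gave 8768 to 9661 calls for KO against WT untreated, 1 to 8 with acetate, 3321 to 6634 for acetate in KO, 95 to 1105 for acetate in WT and 120 to 3976 for the interaction. The genotype difference in intergenic share ranged from -0.622 to 0.206 points, above 0 at 0.0705, 0.0333 and 0.206. That of the gap to gene ends ranged from -0.0757 to 0.12, below 0 at -0.0596, -0.0229 and -0.0757. The acetate difference of that gap ranged from -0.0763 to 0.12, below 0 at -0.0602, -0.0235 and -0.0763, and was -0.033 after loess. For the gap to gene bodies the acetate difference ranged from 0.0574 to 0.0729 and had an exact permutation p of 0.05 without WT acetate 2 (0.0631). The genotype difference of that gap was -0.0214 (exact p = 0.0167) over sites beyond 5 kb and -0.0271 (exact p = 0.0333) after loess. That of the gap to sites beyond 50 kb was -0.127 (exact p = 0.0333) over sites of the commonest width.

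With the replicate number as a block, the counts higher and lower were 855 and 8766 for KO against WT untreated, 2 and 0 with acetate, 5202 and 618 for acetate in KO, 489 and 566 (1055 in all) for acetate in WT, and 1926 and 333 for the interaction. Deviations of same-numbered libraries correlated at -0.0191 to 0.1451 (KO with WT untreated 0.1035 and 0.0973, WT acetate with WT untreated 0.0868 and 0.1451), and no label ties a number to an animal or batch, so the numbers were not taken as pairs. The depth of 47 reads at the median site of WT acetate 1 limits what could be called at weak sites.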

Other observations

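Sites around antigen receptor segments, which rearrange in T and B cells, were 38 in number, 36 of them lower and 2 higher in KO untreated than in WT untreated, with a median log2 difference of -0.77, near the 89.6% lower, 9.07% higher and median of -0.84 of all sites. After loess 3 were lower and 2 higher. A site 3.10 kb from Trbv31, at the end of the T cell receptor β locus (chr6:41554394-41554594), had signals of 715.1, 809.8 and 783.9 in KO untreated, against 1214, 1003 and 1362 in WT untreated. The groups did not overlap, and the log2 difference was -0.62 ± 0.17 (SE, limma adjusted p = 0.000693), which was close to 0 after loess. A site 1.00 kb from Trac (chr14:54225198-54225398) had 178.8, 253.1 and 275.5 in KO untreated, against 706.7, 589.7 and 586.0 in WT untreated. Its difference of -1.43 was also called after loess (-0.69, adjusted p = 0.000718). With acetate it had 715.3 and 579.2 in KO libraries, against 836.9 and 756.1 in WT libraries. Recombined segments were not read from these data.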
